A study of Homo sapiens with 6 samples.

Results

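The protease-activated receptors F2R and F2RL1, tissue factor (F3) and its inhibitors TFPI and TFPI2, thrombomodulin (THBD), the protein C receptor (PROCR), urokinase (PLAU) and the urokinase receptor (PLAUR) were followed in MDA-MB-231, a widely used cell line from a triple-negative human breast cancer. These 9 genes were taken by symbol from the deposited expression table, which holds 20111 genes, and were chosen by a look at their values in these same libraries. Their levels and changes are therefore given as a description, and no p-value is printed for these 9 genes. Where they are said below to be called, the adjusted p rests on values that also served the choice. Such a call is therefore no independent test. The cells had been transfected with an siRNA against NCOA3 (siNCOA3), a coactivator of nuclear receptors, with an siRNA against SHC1 (siSHC1), an adaptor protein downstream of receptor tyrosine kinases, or with a control siRNA (siControl). RNA was taken 48 h or 24 h after transfection, which gives 6 libraries, 1 for each siRNA and time. All 6 come from this single line, grown without the blood, platelets or vessel wall on which these proteins also act, and the sources used here do not say how many siRNA sequences were used against each target.

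Protease-activated receptors are G protein-coupled receptors that are switched on when a protease cuts their outer end and so exposes a tethered ligand. F2R encodes PAR1, the main thrombin receptor, and F2RL1 encodes PAR2, which is cut by trypsin, tryptase and the complex of tissue factor with factor VIIa, but poorly by thrombin. Tissue factor starts blood clotting, TFPI blocks it, and thrombomodulin and PROCR turn thrombin to the activation of protein C, an anticoagulant. Urokinase, held at the cell surface by PLAUR, converts plasminogen to plasmin, and in breast cancer this system is known for its part in matrix breakdown and invasion. In tumour cells tissue factor and the receptors are also known to signal to migration and cytokine genes.

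The values are FPKM as deposited (fragments per kilobase of transcript, scaled to a fixed library size). Their sum per library lay between 495518 and 553073, and the number of fragments behind them is not known here, so that no counting interval is given. NCOA3 had 1.85 FPKM at 48 h and 1.72 FPKM at 24 h after siNCOA3, against 11.4 and 10.3 FPKM after siControl. SHC1 had 15.5 FPKM at 48 h and 14.7 FPKM at 24 h after siSHC1, against 119 and 103 FPKM after siControl. Both targets were thus low in the libraries labelled for them. The mesenchymal markers VIM (887 to 1020 FPKM) and CD44 (473 to 596 FPKM) were high in all libraries. ESR1 was at most 0.092 FPKM and PGR was listed at 0. Of the other genes listed as low or absent in this line, CDH1 was at most 0.572 FPKM and FOXA1 at most 0.030 FPKM. ERBB2 (26.9 to 35.5 FPKM), EPCAM (6.65 to 10.7 FPKM) and GATA3 (4.67 to 5.56 FPKM) went the other way and were present in all libraries. Of 6 endothelial markers, a cell type in which THBD and PROCR are typical, 5 stayed below 1 FPKM, with KDR at 0.485 to 1.25 FPKM and CLDN5 and EMCN listed at 0. The endothelial sum was 1.29 and 1.196 FPKM after siNCOA3, 0.558 and 0.648 FPKM after siSHC1, and 0.881 and 0.885 FPKM after siControl, at 48 h and 24 h in each case. The sum of 7 leukocyte and platelet markers lay between 50.7 and 67.8 FPKM, nearly all of it CD68 (44.3 to 63.1 FPKM), with PTPRC at most 0.055 FPKM and GP1BA listed at 0. That sum was 61.8 and 66.8 FPKM after siNCOA3, 50.7 and 51.7 FPKM after siSHC1, and 67.8 and 52.2 FPKM after siControl. The sum of 7 fibroblast markers was 8.78 and 7.45 FPKM after siNCOA3, 13.7 and 11.3 FPKM after siSHC1, and 9.54 and 5.75 FPKM after siControl, with DCN listed at 0. Beside the changes given below for siSHC1, the fibroblast sum was thus highest after siSHC1, and its part in them was not tested. COL1A1 was the largest part of that sum after siSHC1 (7.47 FPKM at 48 h and 6.78 FPKM at 24 h). COL3A1 was at most 0.028 FPKM and PDGFRA at most 0.0077 FPKM in any library.

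F2RL1 and F3 had the widest ranges of level among the genes of which a RefSeq promoter window was matched (all but F2R and THBD), so their windows are shown. Each runs 5′ to 3′ from 250 bases before to 50 bases after the start of the gene, with matches in capitals to the AP-1 element TGANTCA, and to the GC box GGGCGG on either strand (CCGCCC when read on the other strand). Coordinates and sequence are those of the RefSeq assembly GRCh38.p14, while the submitters' processing notes name hg19 for the expression values. The F2RL1 window is chr5:76818780-76819079 on the plus strand and the F3 window is chr1:94541710-94542009 on the minus strand.
F2RL1: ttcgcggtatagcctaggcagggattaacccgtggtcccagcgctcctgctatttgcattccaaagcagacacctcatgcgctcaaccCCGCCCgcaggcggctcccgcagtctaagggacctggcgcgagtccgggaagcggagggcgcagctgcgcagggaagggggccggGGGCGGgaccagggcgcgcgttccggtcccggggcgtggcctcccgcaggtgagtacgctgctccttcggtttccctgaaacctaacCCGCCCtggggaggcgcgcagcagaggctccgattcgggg
F3: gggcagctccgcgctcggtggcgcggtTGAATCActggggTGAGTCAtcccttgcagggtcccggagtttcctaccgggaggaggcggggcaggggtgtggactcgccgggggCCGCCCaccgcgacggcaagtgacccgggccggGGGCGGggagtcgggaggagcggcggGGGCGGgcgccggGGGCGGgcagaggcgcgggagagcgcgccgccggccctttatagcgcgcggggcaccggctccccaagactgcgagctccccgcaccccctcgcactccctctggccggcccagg
The F2RL1 window held no AP-1 match and 3 GC boxes, at -162, -77 and 11 from the start. The F3 window held 2 AP-1 matches, at -223 and -210, and 4 GC boxes, at -137, -104, -78 and -65, none overlapping another match. Across 35116 promoter windows of the same length, 7.71% held the AP-1 element and 45% held the GC box. Among the other genes, TFPI2 had 1 AP-1 match and 2 GC boxes, PLAUR 1 AP-1 match and no GC box, PROCR 2 GC boxes and TFPI neither. PLAU has 2 windows, of which 1 held 3 GC boxes and the other neither motif. The matches describe these letters in these windows and were not tied to any change in level.

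A pair of short words in the 3′ UTRs is shown because they stood out, in an earlier analysis of the same fold changes, among all 7-base words in 3′ UTRs. They are GTCAAGA for siNCOA3 and GCCCATC for siSHC1. As the sources used here give no siRNA sequence, no word can be assigned to an siRNA. Sites were read 5′ to 3′ on the transcript from GENCODE on GRCh38, with the word in capitals. The site in F2R is chr5:76734534-76734562 (plus strand), the site in PROCR is chr20:35177104-35177132 (plus strand), and the site in TFPI is chr2:187466249-187466277 (minus strand).
F2R, siSHC1 word: gacttctggatGCCCATCcactgggtgta
PROCR, siSHC1 word: ggaagcctatgGCCCATCctccaaagaca
TFPI, siNCOA3 word: ccattctatcaGTCAAGAtgactgaataa
The word starts at base 1042 of 2278 in the 3′ UTR of F2R, at base 302 of 549 in that of PROCR and at base 670 of 2706 in that of TFPI. The 3′ UTRs of F2RL1 (1514 bases), F3, TFPI2, THBD, PLAU and PLAUR hold neither word. Among 10912 tested genes with a 3′ UTR of at least 30 bases, 9.51% hold GTCAAGA and 9% hold GCCCATC.

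The 9 genes covered a wide range of levels, and all 9 passed the filter of at least 1 FPKM in at least 2 libraries. Ranked by the mean FPKM over the 6 libraries, which is a level per length of transcript, the order was F3 (236), PLAU (179), PLAUR (62.7), TFPI (47.7), TFPI2 (32.0), F2RL1 (30.2), THBD (20.1), PROCR (14.4) and F2R (11.9). The agents that start clotting and plasminogen activation thus stood highest, above 97.6% of the tested genes for F3 and 96.7% for PLAU. F2R stood above 47% of the tested genes. Neighbours with ranges that did not overlap were PLAU and PLAUR, PLAUR and TFPI, and TFPI and TFPI2. F3 was above PLAU in 5 of 6 libraries, the exception being siControl at 48 h, where F3 had 137 FPKM and PLAU 171 FPKM. TFPI2 was above F2RL1 in 3 of 6 libraries, F2RL1 above THBD in 4, THBD above PROCR in 5 and PROCR above F2R in 3, so that the order among these genes depended on the library.

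**Figure D1:**
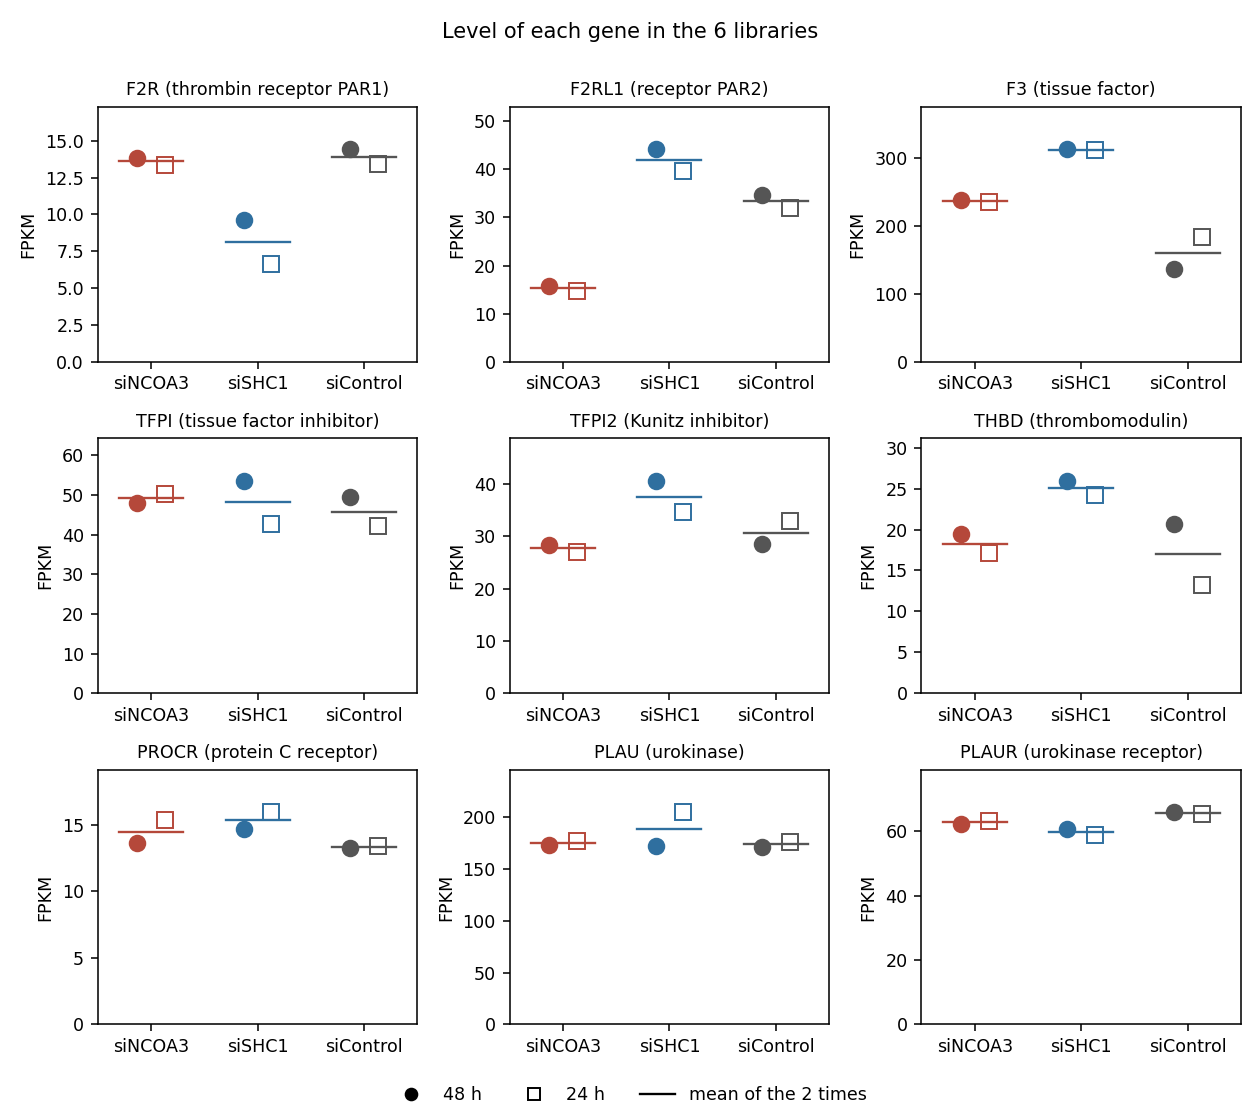
Level of each gene (FPKM, linear axis from 0) after siNCOA3, siSHC1 and siControl, with filled circles for 48 h, open squares for 24 h and a line at the mean of the 2 times. F2RL1 sits at 14.7 to 15.8 FPKM after siNCOA3, F2R at 6.64 to 9.62 FPKM after siSHC1 and F3 at 312 to 313 FPKM after siSHC1, each apart from the other siRNAs.

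Among the receptors, F2RL1 fell after siNCOA3 and F2R fell after siSHC1. F2RL1 (PAR2) had 15.8 FPKM at 48 h and 14.7 FPKM at 24 h after siNCOA3, 44.2 and 39.7 FPKM after siSHC1, and 34.8 and 32.0 FPKM after siControl. The 3 siRNAs did not overlap in F2RL1: both siNCOA3 libraries were lowest, both siSHC1 libraries highest and the siControl libraries between them. In FPKM scaled between libraries, F2RL1 after siNCOA3 was at 45.8% of siControl at 48 h and at 42.6% at 24 h. Changes were fitted with limma on log2(scaled FPKM + 1), in a model of all 6 libraries with siRNA and time as terms, so that the 2 times serve as replicates of an siRNA, and a gene is called where the Benjamini-Hochberg adjusted p over all 11690 tested genes is under 0.05. The labels do not say whether libraries came from separate cultures, so the p-values behind the calls measure only how these libraries vary, and that variation may be technical. F2RL1 changed by -1.13 ± 0.09 (log2 ± SE) after siNCOA3, a call, and the change was larger in size than that of 99.9% of tested genes. After siSHC1 it stood at 129% and 116% of siControl (48 h and 24 h), a difference of 0.29 ± 0.09 that was not called. In bulk RNA, fewer cells with a transcript and less of it per cell cannot be told apart.

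The fall in F2RL1 rests on all 4 libraries compared. The call was lost without siNCOA3 at 48 h (-1.14) or 24 h (-1.12) and without siControl at 48 h (-1.19) or 24 h (-1.07), where 1 library then stands alone, while the size of the change hardly moved. It was also lost with no filter on low values and with plain eBayes moderation, at the same log2 change.

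F2R (PAR1) had 13.9 FPKM at 48 h and 13.3 FPKM at 24 h after siNCOA3, 9.62 and 6.64 FPKM after siSHC1, and 14.4 and 13.4 FPKM after siControl. Both siSHC1 libraries lay below the other 4, which were close to each other. F2R after siSHC1 was at 67.9% of siControl at 48 h and 46.3% at 24 h (scaled FPKM), and fell by 0.76 ± 0.14 on the log2 scale, a call. After siNCOA3 the difference was -0.08 ± 0.14 and was not called. The call for siSHC1 was lost without siSHC1 at 24 h (-0.53), the library with the lowest level, and without siControl at 48 h (-0.90) or 24 h (-0.62). It was lost as well with no term for time, with no filter and with plain eBayes. F2R holds a GCCCATC site printed above. PROCR, which holds the same word, had a difference of 0.16 ± 0.09 after siSHC1, not called. As the word was picked from the same fold changes, the site in F2R is not independent of the fall in F2R. Any link between them was not tested.

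The FPKM of F2RL1 over that of F2R in the same library was 1.14 at 48 h and 1.11 at 24 h after siNCOA3, 4.59 and 5.99 after siSHC1, and 2.41 and 2.39 after siControl. With siSHC1 set against siNCOA3, F2RL1 was 2.66-fold higher on the scale of FPKM + 1 (log2 1.41 ± 0.09) and F2R was lower by a log2 change of -0.68 ± 0.14, both calls. The F2RL1 call in that comparison held without any 1 library, with values between 1.36 and 1.47, and was lost with no filter. The F2R call was lost without siSHC1 at 24 h (-0.45) and without siNCOA3 at 48 h (-0.77) or 24 h (-0.59), and with no filter, with plain eBayes and with no term for time. The other receptors of the family were low: F2RL2 (PAR3) was between 0.021 and 0.241 FPKM, below the filter. F2RL3 (PAR4, a thrombin receptor known from platelets) had 2.002 and 1.82 FPKM after siNCOA3, 1.58 and 2.60 FPKM after siSHC1, and 4.63 and 2.94 FPKM after siControl, at 48 h and 24 h. All 4 knockdown libraries of F2RL3 were below both siControl libraries, with log2 differences of -0.73 ± 0.21 for siNCOA3 (limma adjusted p = 0.362) and -0.65 ± 0.21 for siSHC1 (limma adjusted p = 0.116), neither called.

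**Figure D2:**
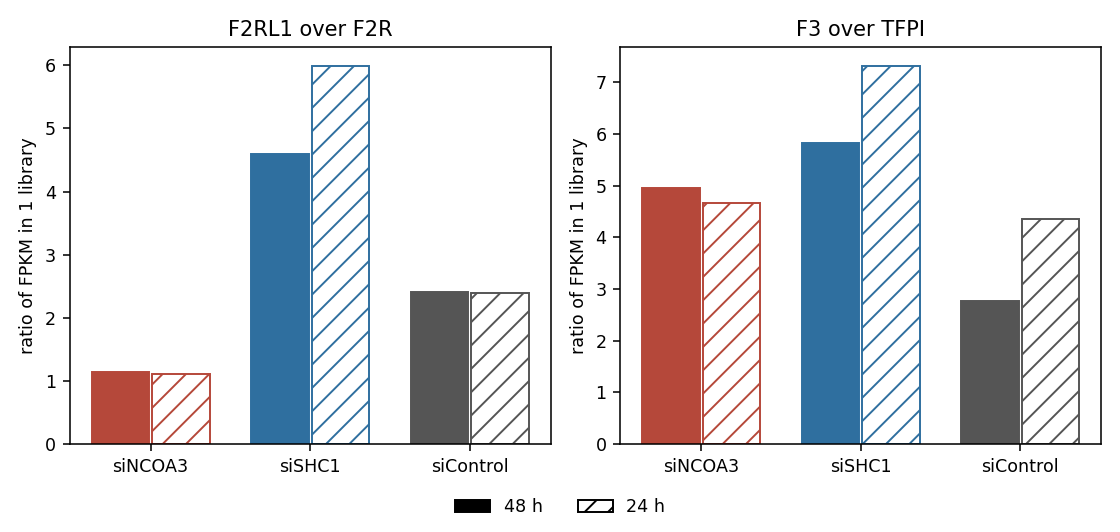
Ratio of FPKM within each library (linear axis from 0) for F2RL1 over F2R, on the left, and for F3 over TFPI, on the right, with filled bars for 48 h and hatched bars for 24 h, 1 library each and no error bar. F2RL1 over F2R is 1.11 to 1.14 after siNCOA3, 4.59 to 5.99 after siSHC1 and 2.39 to 2.41 after siControl.

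Tissue factor, the trigger of clotting, rose after siSHC1. F3 had 238 FPKM at 48 h and 236 FPKM at 24 h after siNCOA3, 313 and 312 FPKM after siSHC1, and 137 and 184 FPKM after siControl. The siRNAs did not overlap, and within siNCOA3 and within siSHC1 the 2 times were nearly alike, while the siControl library at 48 h lay well below that at 24 h. F3 after siSHC1 was at 233% of siControl at 48 h and at 159% at 24 h, with a log2 change of 0.94 ± 0.14, a call. After siNCOA3 it was at 175% and 119% of siControl, a log2 difference of 0.53 ± 0.14 that was not called, although it was larger in size than that of 98.1% of tested genes. The siSHC1 call was lost without siSHC1 at 48 h (0.81) or 24 h (1.07), with no filter and with plain eBayes. It held without siControl at 48 h, where the change was 0.66, and without siControl at 24 h, where it was 1.21. Since siNCOA3 and siSHC1 are set against the same siControl libraries, the low F3 of siControl at 48 h enters both comparisons.

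The inhibitors of tissue factor were not called in any comparison of the fit over all 6 libraries. TFPI, which blocks factor Xa and the tissue factor complex, had 47.9 FPKM at 48 h and 50.4 FPKM at 24 h after siNCOA3, 53.6 and 42.7 FPKM after siSHC1, and 49.5 and 42.1 FPKM after siControl. The groups of TFPI overlapped, with log2 differences of 0.05 ± 0.11 for siNCOA3 and 0.03 ± 0.11 for siSHC1. TFPI2, a related inhibitor of plasmin and other proteases in the matrix, had 28.4 and 27.0 FPKM after siNCOA3, 40.7 and 34.6 FPKM after siSHC1, and 28.5 and 32.9 FPKM after siControl. Both siSHC1 libraries were highest in TFPI2, with a log2 difference of 0.25 ± 0.13 against siControl and 0.44 ± 0.13 against siNCOA3. The difference in TFPI2 from siNCOA3 became a call with only the 4 libraries compared (0.43) and without siControl at 48 h (0.44) or 24 h (0.44). The ratio of F3 to TFPI in the same library was 4.96 at 48 h and 4.67 at 24 h after siNCOA3, 5.83 and 7.31 after siSHC1, and 2.76 and 4.36 after siControl. Every knockdown library was above both siControl libraries in this ratio, though the siControl library at 24 h lay close below the siNCOA3 libraries.

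Of the receptors of the anticoagulant protein C pathway, thrombomodulin rose after siSHC1. THBD had 19.4 FPKM at 48 h and 17.1 FPKM at 24 h after siNCOA3, 26.0 and 24.2 FPKM after siSHC1, and 20.7 and 13.2 FPKM after siControl. Both siSHC1 libraries were above the other 4, and the siNCOA3 values lay between those of siControl. THBD after siSHC1 was at 128% of siControl at 48 h and 171% at 24 h, with a log2 change of 0.54 ± 0.12, a call close to the threshold. That call held under only 3 of 15 alternative settings and was lost without any 1 library, the change being 0.36 without siControl at 24 h and 0.72 without siControl at 48 h, 0.65 without siSHC1 at 48 h, 0.42 without siSHC1 at 24 h and 0.54 without either siNCOA3 library. It was lost with no scaling (0.57) and with equal FPKM totals (0.48) as well. PROCR, which binds protein C for activation by thrombin on thrombomodulin, had 13.6 and 15.4 FPKM after siNCOA3, 14.7 and 16.0 FPKM after siSHC1, and 13.3 and 13.4 FPKM after siControl. PROCR differed by 0.06 ± 0.09 (log2) after siNCOA3 and by 0.16 ± 0.09 after siSHC1, neither called. Beside the rise in THBD, a gene typical of endothelium, the endothelial marker sum was lowest in both siSHC1 libraries, as given above. That sum was mostly the 1 gene KDR (0.485 FPKM at 48 h and 0.583 FPKM at 24 h after siSHC1). Any link of it to THBD was not tested.

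The urokinase system was high and varied little. PLAU had 172 FPKM at 48 h and 176 FPKM at 24 h after siNCOA3, 172 and 204 FPKM after siSHC1, and 171 and 176 FPKM after siControl. PLAUR had 62.2 and 63.2 FPKM after siNCOA3, 60.8 and 58.8 FPKM after siSHC1, and 65.9 and 65.4 FPKM after siControl. Of PLAU only the siSHC1 library at 24 h stood apart, while PLAUR was a little lower in all 4 knockdown libraries than in both siControl libraries. The log2 differences from siControl were -0.04 ± 0.08 (siNCOA3) and 0.08 ± 0.08 (siSHC1) for PLAU, and -0.11 ± 0.08 and -0.17 ± 0.08 for PLAUR, none called. The ratio of PLAU to PLAUR was 2.77 at 48 h and 2.79 at 24 h after siNCOA3, 2.82 and 3.47 after siSHC1, and 2.60 and 2.69 after siControl.

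Set side by side, the comparisons called few of the 9 genes. For siNCOA3 against siControl, 1 of the 9, F2RL1, was called, beside 0.111% of all tested genes (13 of 11690, all lower). For siSHC1 against siControl, 3 of the 9 were called (F2R lower, F3 and THBD higher), beside 6.42% of all tested genes. For siSHC1 against siNCOA3, 2 of the 9 were called (F2R lower, F2RL1 higher), beside 9.74% of all tested genes. As the genes were chosen by their values here, nothing is read from these counts against the background. The median log2 change of the 9 genes was -0.04 for siNCOA3 and 0.16 for siSHC1 against siControl, beside medians over all tested genes of -0.00 and 0.00. Against siControl, 4 of the 9 were above 0 after siNCOA3 and 7 of the 9 after siSHC1. The comparisons share libraries, so that the values of a gene in them are not independent. F2RL1 was lower after siNCOA3 and higher, not called, after siSHC1, while F3 was higher after both, called for siSHC1.

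**Figure D3:**
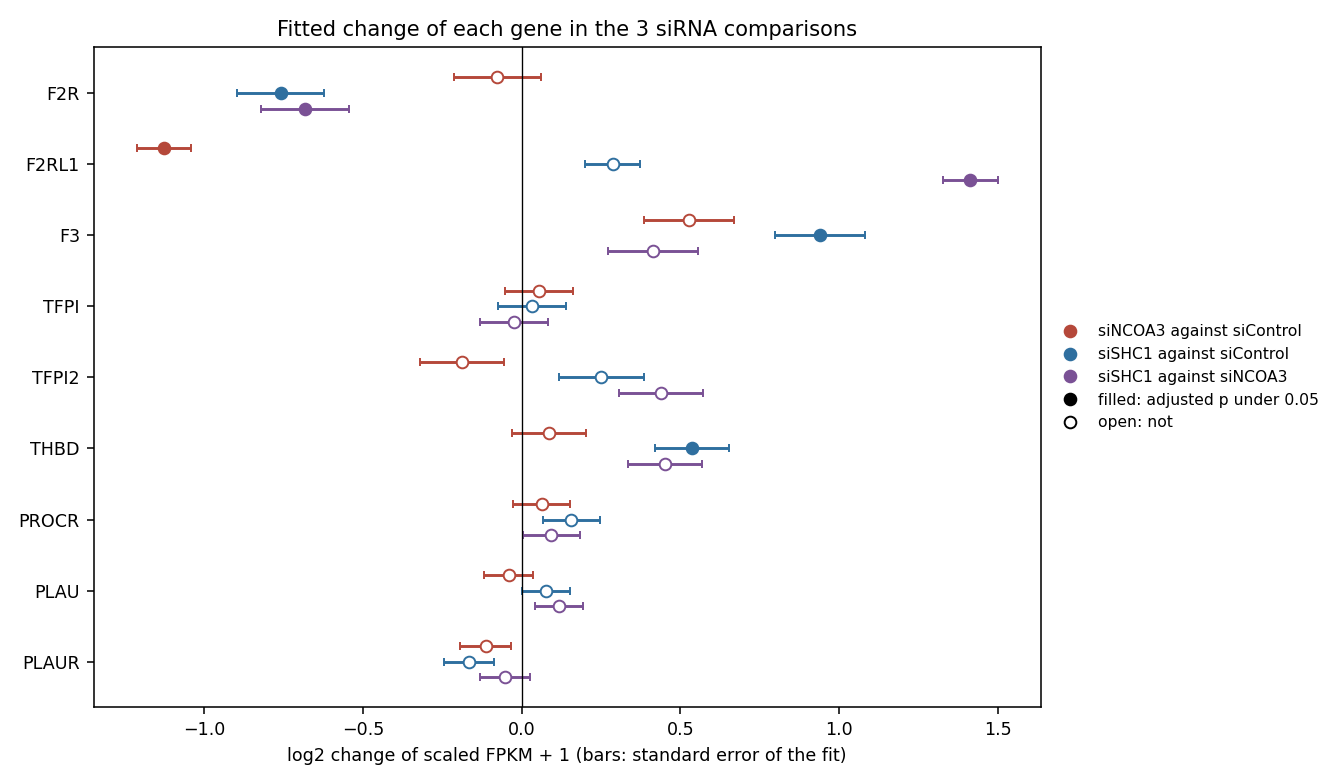
Fitted log2 change of each gene for siNCOA3 against siControl, siSHC1 against siControl and siSHC1 against siNCOA3, with bars for the standard error of the fit over 6 libraries and filled points for an adjusted p under 0.05. F2RL1 lies at -1.13 for siNCOA3 and at 0.29 for siSHC1 against siControl, F3 lies to the right of 0 in all 3 comparisons, and PLAU, PLAUR, TFPI and PROCR lie between -0.17 and 0.16.

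Between 48 h and 24 h none of the 9 genes was called by limma, beside 0.0257% of all tested genes (3 of 11690, with 1660 at an unadjusted p under 0.05). The largest fitted difference was that of THBD (0.27 ± 0.10, 48 h against 24 h), with 0.19 after siNCOA3, 0.12 after siSHC1 and 0.51 after siControl. F3 differed by 0.04 after siNCOA3, by 0.02 after siSHC1 and by -0.53 after siControl. F2R differed by 0.07, 0.49 and 0.00 in the same order of siRNAs. The spread between the times of these genes thus came mainly from 1 siRNA each, siControl for THBD and F3 and siSHC1 for F2R. TFPI2 differed by 0.09, 0.25 and -0.30, and F2RL1 by 0.11, 0.17 and 0.02.

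The genes with the pattern most like that of the 3 members with the widest range were found by Pearson correlation over the 6 libraries, on log2(scaled FPKM + 1), among the 8925 tested genes that averaged 5 FPKM or more. With 3 siRNAs at 2 times each, these 6 points fall into pairs, and the highest of many correlations are close to 1 by choice. The closest to F2RL1 were PHLDA1 (0.996), TMED10 (0.995) and MDC1 (0.994), each lowest in both siNCOA3 libraries and highest in both siSHC1 libraries. PHLDA1 had 48.9 FPKM at 48 h and 48.8 FPKM at 24 h after siNCOA3, 99.6 and 99.7 FPKM after siSHC1, and 84.6 and 78.3 FPKM after siControl. The closest to F3 were ATP5J (0.992), TUSC2 (0.9897) and HRAS (0.987), each lowest after siControl. TUSC2 had 16.5 and 16.8 FPKM after siNCOA3, 19.7 and 20.5 FPKM after siSHC1, and 12.8 and 14.0 FPKM after siControl. The closest to F2R were GCC1 (0.998), PPP2R1A (0.996) and SPA17 (0.996), each lowest in both siSHC1 libraries. SPA17 had 11.997 and 11.4 FPKM after siNCOA3, 8.92 and 6.81 FPKM after siSHC1, and 12.7 and 11.1 FPKM after siControl.

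A list of 99 other genes around these members was set beside them, with receptors, G proteins and arrestins, activating proteases and their inhibitors, clotting factors, and the plasminogen system. Of these, 98 were matched in the table and 52 passed the filter. For siNCOA3 against siControl none of the 52 was called by limma, and their median log2 difference was -0.05, with 19 above 0. Unadjusted, 1226 of all tested genes had a p under 0.05 in this comparison. For siSHC1 against siControl 5 rose and 3 fell, which is 15.4% of the 52, beside 6.42% of all tested genes, and the median over the list was 0.06. The list was drawn up with earlier results of these libraries known, so a call of a listed gene is no independent test. Calls of listed genes were not followed through the alternative settings.

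Among the 8 called genes of the list, ITGB1, TGM2, THBS1 and ITGA5 changed most after siSHC1, while the other integrin subunits on the list (ITGA3, ITGAV, ITGB3 and ITGB5) were not called. ITGB1, the beta-1 integrin subunit, fell to 184 FPKM at 48 h and 179 FPKM at 24 h after siSHC1, against 481 and 445 FPKM after siControl. Its log2 change was -1.38 ± 0.06 (limma adjusted p = 0.000552). ITGA5, the alpha-5 subunit that pairs with ITGB1 in the fibronectin receptor, rose to 127 and 93.9 FPKM after siSHC1, against 65.9 and 50.2 FPKM after siControl (log2 0.88 ± 0.10, limma adjusted p = 0.00856). The subunits of this receptor thus moved in opposite directions. THBS1, thrombospondin-1, a secreted matrix protein, rose to 447 and 560 FPKM after siSHC1, against 215 and 272 FPKM after siControl (log2 1.01 ± 0.14, limma adjusted p = 0.0193). TGM2, a transglutaminase that crosslinks matrix proteins, fell to 122 and 121 FPKM after siSHC1, against 276 and 233 FPKM after siControl (log2 -1.09 ± 0.07, limma adjusted p = 0.00191). Of the proteins that shut down activated receptors, the arrestin ARRB2 rose by 0.67 ± 0.10 (limma adjusted p = 0.0175). The receptor kinase ADRBK1 (GRK2) fell by 0.53 ± 0.09 (limma adjusted p = 0.0268). VKORC1, which recycles vitamin K for the clotting factors, and S100A10, a plasminogen-binding protein, were the other calls, with log2 changes of 0.50 ± 0.10 and 0.36 ± 0.07.

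**Figure D4:**
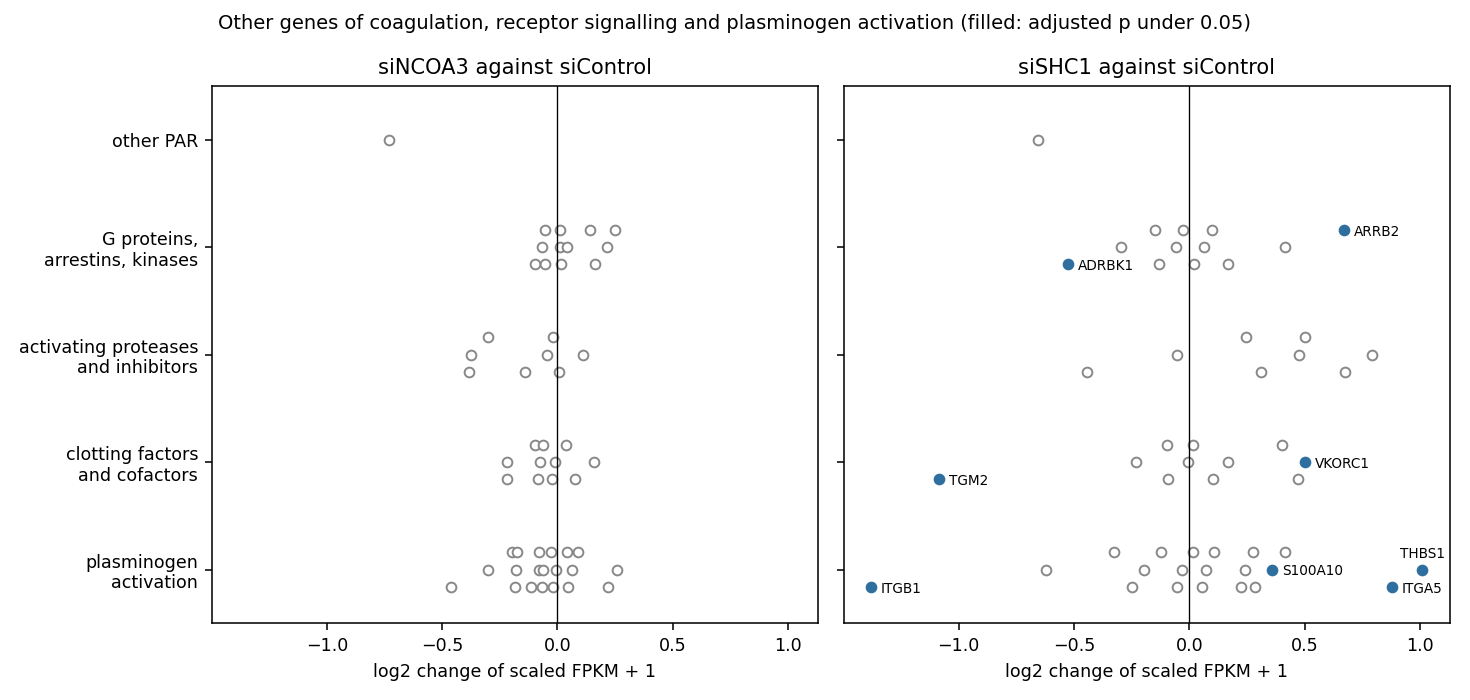
Fitted log2 change of the 52 tested genes of the list in siNCOA3 against siControl, on the left, and in siSHC1 against siControl, on the right, 1 point for each gene, in rows by role with vertical offsets for legibility. Filled, named points have an adjusted p under 0.05: none on the left and 8 on the right, with ITGB1 and TGM2 furthest below 0 and THBS1 and ITGA5 furthest above it among them.

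For siSHC1 against siNCOA3, limma called 8 genes of the list higher and 3 lower, which is 21.2% of the 52, beside 9.74% of all tested genes. The 6 with the largest log2 changes were THBS1 (1.47), ITGB1 (-1.38), PRSS3 (0.97), ITGA5 (0.95), TGM2 (-0.87) and ARRB2 (0.66). PRSS3, mesotrypsin, has near-identical trypsinogen copies, so its reads may be shared, and it was low, with 5.70 and 2.89 FPKM after siSHC1 against 1.92 and 1.33 FPKM after siNCOA3, at 48 h and 24 h. Between the times no gene of the list was called, and the median log2 difference was 0.09.

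Of the other genes of the plasminogen system, SERPINE2 and PLAT did not pass the test in any comparison. SERPINE2, protease nexin-1, had 3.88 and 4.21 FPKM after siNCOA3, 2.40 and 3.93 FPKM after siSHC1, and 4.56 and 3.10 FPKM after siControl, with overlap. SERPINB2, a urokinase inhibitor, was at most 0.145 FPKM, below the filter. PLAT, the tissue-type plasminogen activator, had 119 and 117 FPKM after siNCOA3, 168 and 124 FPKM after siSHC1, and 159 and 107 FPKM after siControl, also with overlap.

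Several partners of these proteins, picked after their values were seen, were at or near 0. Prothrombin (F2) reached at most 0.136 FPKM, factor VII (F7) 0.022 FPKM, factor X (F10) 0.030 FPKM and plasminogen (PLG) 0.129 FPKM. Among membrane proteases, matriptase (ST14), which can cut F2RL1 or PLAU, reached 0.768 FPKM and prostasin (PRSS8) 0.186 FPKM. MMP1, which can cut F2R, reached 1.06 FPKM. Not all other listed proteases were this low, though TMPRSS4, KLK5 and GZMA, among others, were listed at 0 in all libraries. To complete the count of those that passed the filter, FURIN had 31.3 to 48.7 FPKM, CTSS 4.22 to 7.37 FPKM and PRSS22 1.12 to 3.05 FPKM. PRSS3 reached 5.70 FPKM, PRSS1 2.73 FPKM and the membrane protease TMPRSS2 1.28 FPKM. After siNCOA3 at 24 h, PRSS1 had only 0.136 FPKM and TMPRSS2 0.280 FPKM. The highest genes of each group of the list, the receptors aside, included ENO1, a surface plasminogen receptor as well as a glycolytic enzyme (mean 1746 FPKM). The others were P4HB, a disulfide isomerase (1034 FPKM), SPINT2, a Kunitz inhibitor of membrane proteases (202 FPKM), and the G protein subunit GNAI2 (184 FPKM).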

How the data were processed

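Messenger RNA of MDA-MB-231 cells was sequenced from 6 libraries. Trizol was used for extraction and a stranded kit for the libraries, per the labels' protocols. The submitters' processing notes name STAR, Cufflinks, DESeq2 and hg19, with no roles or versions; the sources used here give neither annotation nor strand setting, so reads of overlapping or antisense genes may be mixed. Although its name speaks of read counts, the table the authors deposited holds FPKM, so no count test was run.

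FPKM were scaled by the median of ratios over 11042 genes (factors 0.947 to 1.02). Genes with at least 1 scaled FPKM in at least 2 libraries (11690) entered limma 3.58.1 in R 4.3.3 as log2(scaled FPKM + 1), that is with a pseudocount of 1 (eBayes with trend and robust moderation), with additive terms for siRNA and time, 2 residual degrees of freedom, and Benjamini-Hochberg adjustment within each comparison at 0.05. Time is the block that pairs libraries, since both times were taken of each siRNA. Levels are FPKM as deposited, percentages are of scaled FPKM. Alternatives changed scaling, filter, pseudocount, moderation, model terms and libraries.

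The members and lists were chosen with earlier results of these data known. From the list of 99 other genes the text names those called, or the 6 with the largest changes where more than 6 were, 6 receptors and inhibitors of activators fixed by name, and the highest gene of each group; genes outside this rule are said to be so or complete a count. An item that the rule covers is not reported here. Promoters came from RefSeq, 3′ UTRs from GENCODE. Python 3.11.15, pandas 2.3.3 and matplotlib 3.10.9 were used.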

Additional observations from a re-analysis of the deposited data

Results flagged for a closer look

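For 6 pairs of gene and siRNA the difference from siControl had one sign at 48 h and the other at 24 h, on log2(scaled FPKM + 1). With 1 library for each siRNA and time, these differences between times were not tested. TFPI differed by -0.034 at 48 h and 0.14 at 24 h after siNCOA3, and by 0.14 and -0.076 after siSHC1. TFPI2 differed by 0.0056 at 48 h and -0.38 at 24 h after siNCOA3, and by 0.52 and -0.021 after siSHC1. THBD differed by -0.075 at 48 h and 0.25 at 24 h after siNCOA3. PLAU differed by 0.023 at 48 h and -0.11 at 24 h after siNCOA3. Both siRNAs are set against the same siControl library at each time, so a siControl library that is high or low in TFPI, TFPI2 or THBD enters both. None of these 6 was called over the 2 times together.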

How the results depend on the processing

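The counts of members called in the 3 siRNA comparisons (siNCOA3 against siControl, siSHC1 against siControl, siSHC1 against siNCOA3: 1, 3 and 2) were 0, 0 and 0 with no filter, and 0, 0 and 1 with plain eBayes. Without the replicate block (no term for time) they were 1, 1 and 1. With only the 4 libraries compared, siSHC1 against siNCOA3 called 5 (F2R, F2RL1, F3, TFPI2 and THBD). Leaving out 1 library at a time gave 0 to 1, 0 to 2 and 1 to 5, the lone library of an siRNA being assumed to vary like the others. Scaling, the stricter filter and the pseudocount moved none of these counts by over 1.5 times. Between times no alternative called a member. Over all genes the calls ranged over 0 to 38, 2 to 867 and 4 to 1249 in the siRNA comparisons and 0 to 64 between times, as the filter, the moderation or a library left out changed; the cause was not tested. The log2 changes of the called members kept their sign under all alternatives. The sign turned only in values that were not called. With no scaling, PLAU after siNCOA3 was 0.0086 and PLAUR between times 0.0113, and with equal totals TFPI after siSHC1 was -0.0303 and TFPI2 between times -0.0038. Leaving out libraries gave, for siNCOA3 against siControl, -0.22 to 0.061 for F2R, -0.42 to 0.042 for TFPI2, -0.10 to 0.26 for THBD, -0.090 to 0.20 for TFPI and -0.13 to 0.044 for PLAU. It gave -0.12 to 0.18 for TFPI and -0.0015 to 0.15 for PLAU with siSHC1 against siControl, and -0.17 to 0.13 for TFPI and -0.11 to 0.0023 for PLAUR with siSHC1 against siNCOA3. Between times it gave -0.25 to 0.029 for F3, -0.048 to 0.032 for PLAUR and -0.10 to 0.17 for TFPI2. With 1 library for each siRNA and time, and unknown depth, small differences of any of the 9 genes could not be resolved.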
